A study of Mus musculus with 3 samples.

Results

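Lymphocyte-attracting and homeostatic chemokines were followed in 3 populations of adipose stromal cells. The set holds 9 genes, taken as a fixed list by what they are known to do, with earlier results of these data known. Cxcl9, Cxcl10 and Cxcl11 are the interferon-inducible ligands of CXCR3. Cxcl12, Cxcl14, Cxcl13 and Cxcl16 are made at rest in many tissues, and Ackr3 and Ackr4 are atypical receptors. Of these, 8 have a row among the 32285 genes of the count files, and Cxcl11 was not analysed here. The cells came from the inguinal subcutaneous fat depots of wild-type C57BL/6J male mice at 8 weeks of age. The stromal vascular fraction was depleted of CD31+ and CD45+ cells, and its single cells were counted by 10x Genomics 3' sequencing, with 1 library for each of 3 mice and no treatment or genotype contrast. Each mouse is 1 replicate, and SDs below are over 3 mice. SEs of log2 fold changes were derived from the F statistic of the edgeR fit, which shares information on spread over genes. They are not the spread of the 3 mice and can be smaller than it. Exact counting intervals and limits of a count of 0 cover counting error only.

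Chemokines are small secreted proteins that guide leukocytes along gradients, and each binds G-protein-coupled receptors on the cells it attracts. Inducible members such as Cxcl9 and Cxcl10 are switched on by interferons together with NF-kB and draw activated T cells, whereas homeostatic members such as Cxcl12 hold stem cells and lymphocytes in their niches. Atypical receptors bind chemokines without classical G-protein signalling and take them up from the surroundings. Adipose stromal cells are a known source of both kinds of chemokine in fat.

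The libraries held 36790 barcodes, of which 34577 cells had more than 500 genes and under 5% mitochondrial UMIs (unique molecular identifiers, the counted molecules). The median depth was 7393, 12193 and 6667 UMIs in mice 1, 2 and 3, and pairs of libraries shared 52 to 81 barcodes. Cells were gated on raw UMIs of 6 genes that are not members. Progenitors had at least 3 UMIs of Dpp4 plus Pi16 and at most 1 of Icam1 plus Fabp4, which gave 19841 cells. Preadipocytes had at least 4 UMIs of Icam1 plus Fabp4 and at most 1 of Dpp4, which gave 5561 cells. Regulatory cells had at least 1 UMI each of Clec11a and Fmo2 and at most 1 each of Fabp4 and Dpp4, which gave 1058 cells, and 7830 cells met no gate. Cells that met more than 1 gate, 49, 119 and 96 in mice 1, 2 and 3, were left out of the gate counts. No gate required Pdgfra or left out cells with markers of endothelial or other cell types, so such cells could fall within a gate. The regulatory rule alone gave 319, 503 and 500 cells, of which 270, 384 and 404 were kept. Further markers mostly went with the gate labels (edgeR quasi-likelihood test, adjusted p under 0.05). Of 6 further progenitor markers, 6 were higher in progenitors than in preadipocytes, and 6 of 6 preadipocyte markers were lower there. These counts stand beside 29.2% and 27.2% of all genes tested. Of 6 regulatory markers, 6 were higher in regulatory cells than in progenitors and 5 than in preadipocytes, beside 18.9% and 12.3% of all genes. In regulatory cells, 5 of 6 preadipocyte markers were also higher than in progenitors. Regulatory cells were the shallowest, with median depths of 4945, 10105 and 4575 UMIs.

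RefSeq promoter windows of GRCm38.p6 were found for 7 of the 9 members, and the 250 bases before the start are shown for the 5 ligands among them because the contrast between these ligands runs through the results. Capitals mark matches, on either strand, to an interferon-stimulated response element (GAAA, any 2 bases, GAAA), a gamma-activated sequence (TTCNNNGAA) or an NF-kB element (GGG, any 2 or any 3 bases, TTCC), and the NF-kB forms can overlap.

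Cxcl9: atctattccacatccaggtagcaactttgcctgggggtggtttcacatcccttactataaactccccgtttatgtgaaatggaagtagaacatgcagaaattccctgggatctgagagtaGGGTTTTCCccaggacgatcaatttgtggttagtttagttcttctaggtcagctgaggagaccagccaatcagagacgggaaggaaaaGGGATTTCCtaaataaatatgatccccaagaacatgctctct
Cxcl10: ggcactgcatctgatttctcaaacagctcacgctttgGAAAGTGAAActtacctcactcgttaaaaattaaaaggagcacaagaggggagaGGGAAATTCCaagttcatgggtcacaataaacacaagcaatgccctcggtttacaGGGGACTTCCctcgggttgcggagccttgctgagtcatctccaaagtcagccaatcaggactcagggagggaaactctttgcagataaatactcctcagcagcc
Cxcl13: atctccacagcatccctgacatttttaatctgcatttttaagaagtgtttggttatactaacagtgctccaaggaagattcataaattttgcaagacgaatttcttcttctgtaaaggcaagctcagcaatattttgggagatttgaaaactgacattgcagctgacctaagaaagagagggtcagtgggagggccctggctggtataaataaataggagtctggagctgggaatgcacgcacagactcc
Cxcl12: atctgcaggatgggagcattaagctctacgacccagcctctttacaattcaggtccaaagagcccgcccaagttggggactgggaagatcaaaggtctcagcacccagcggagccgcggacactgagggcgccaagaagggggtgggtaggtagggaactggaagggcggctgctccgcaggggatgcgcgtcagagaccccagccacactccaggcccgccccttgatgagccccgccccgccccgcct
Cxcl14: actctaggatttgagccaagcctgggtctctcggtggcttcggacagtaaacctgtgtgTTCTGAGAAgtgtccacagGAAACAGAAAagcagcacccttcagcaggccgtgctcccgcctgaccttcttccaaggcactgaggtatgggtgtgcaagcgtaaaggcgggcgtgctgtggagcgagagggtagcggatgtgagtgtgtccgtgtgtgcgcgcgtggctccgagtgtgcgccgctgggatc

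The Cxcl9 window (chr5:92328080-92328329, minus strand) holds 2 NF-kB matches, at 130 to 122 and at 42 to 34 bases before the start. The Cxcl10 window (chr5:92348890-92349139, minus strand) holds a response element match at 213 to 204 bases before the start and NF-kB matches at 159 to 150 and at 104 to 95, where a 9-base match lies inside the 10-base one. The Cxcl14 window (chr13:56296552-56296801, minus strand) holds 1 response element match and 1 gamma-activated match, and the windows of Cxcl13 (chr5:95956689-95956938, plus strand) and Cxcl12 (chr6:117168285-117168534, plus strand) hold none of these letters. Among all 32851 windows of this length, 2.98% hold the response element letters, 7.02% the gamma-activated letters, and 4.98% and 4.65% the shorter and the longer NF-kB letters. These matches are descriptions of the letters and not binding sites, and such letters occur in many genes.

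In GENCODE M21 on GRCm38, Cxcl9 (ENSMUSG00000029417, chr5:92321347-92328079) and Cxcl10 (ENSMUSG00000034855, chr5:92346638-92348889) are neighbours on the minus strand, 18558 bases apart, and Cxcl11 (chr5:92359544-92365485), annotated as a polymorphic pseudogene, lies 10654 bases beyond Cxcl10. Cxcl13 (ENSMUSG00000023078, chr5:95956951-95961068) is on the same chromosome, and Cxcl12 (ENSMUSG00000061353) is at chr6:117168535-117181367. Cxcl14 (ENSMUSG00000021508) is at chr13:56288643-56296551 and Cxcl16 (ENSMUSG00000018920) at chr11:70453983-70459984. Ackr3 (ENSMUSG00000044337) is at chr1:90203980-90216751 and Ackr4 (ENSMUSG00000079355) at chr9:104084157-104126933. Cxcl10, Cxcl16 and Ackr4 overlap Art3, Zmynd15 and Acad11 on the opposite strand, and the strand setting of the counting is not given in the sources used here. Those partners were at 3.34 to 12.4, 0.834 to 8.69 and 2.98 to 7.23 CPM in the gated sums, where CPM is the number of UMIs of a gene scaled to 1e6 UMIs of the sum.

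The first question was how each member was distributed over the 3 gates. UMIs were summed over the cells of a gate in each mouse, and levels are CPM of that sum. The gates were compared in 1 edgeR quasi-likelihood fit over the 9 sums with the mouse as a block, and p-values were adjusted by Benjamini-Hochberg over all genes tested. The 6 gate genes were left out of every count. The gates were cut on genes of the same cells, so that p-values of genes related to the gate genes are not independent of the gating. Icam1 itself is in the NF-kB list used below. Preadipocytes needed at least 4 UMIs of Icam1 plus Fabp4, whereas progenitors could hold at most 1. The part of this gating in the gate differences of Cxcl9, Cxcl10 and the interferon genes was not tested. In sums of this kind, fewer expressing cells and less RNA per cell cannot be told apart.

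**Figure D1:**
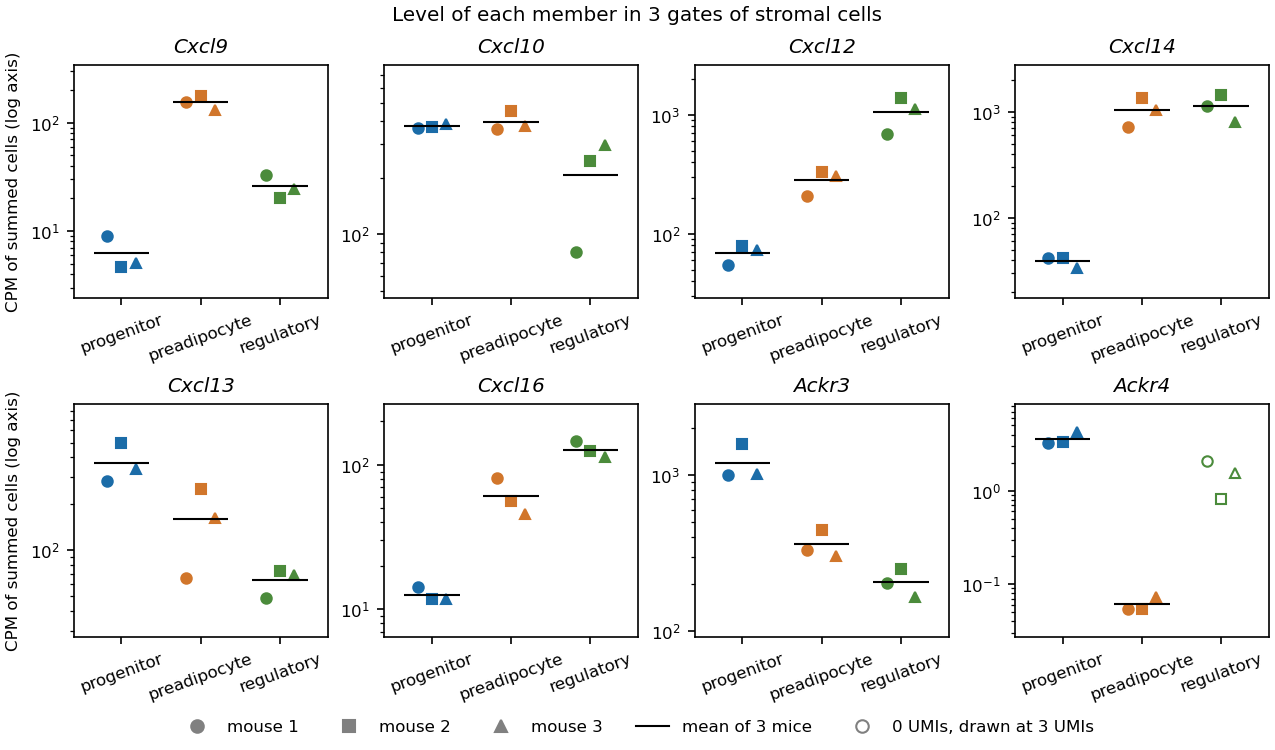
Level of 8 members in the 3 gates. Each panel gives the CPM of the summed cells on a log axis for 1 gene, with 1 point per mouse and the mean of the 3 mice as a line, and open symbols stand for sums with 0 UMIs, drawn at the level of 3 UMIs. Cxcl9 is highest in preadipocytes, Cxcl12 and Cxcl16 in regulatory cells, Cxcl13, Ackr3 and Ackr4 in progenitors, and Cxcl14 is high in both preadipocytes and regulatory cells.

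Cxcl9, a ligand of the T cell receptor for chemokines CXCR3, was highest in preadipocytes. Its level in preadipocytes was 156, 176 and 132 CPM in mice 1, 2 and 3. Progenitors held 9.06, 4.61 and 5.07 CPM, and regulatory cells 33.0, 20.01 and 24.3 CPM. The 3 gates did not overlap in any mouse, with preadipocytes on top and progenitors at the bottom. The log2 fold change of progenitors against preadipocytes was -4.59 (SE 0.17, edgeR adjusted p = 4.4e-10), a 24.1-fold difference, and regulatory cells were lower than preadipocytes by -2.62 (SE 0.22, edgeR adjusted p = 2.7e-06). Regulatory cells exceeded progenitors by 1.97 on the log2 scale (SE 0.28, edgeR adjusted p = 0.00012), a call that was lost with stricter gates (1.25, adjusted p = 0.141). Markers of other cell types moved with the gates too. Of 7 endothelial markers, 5 were lower and 1 higher in progenitors than in preadipocytes (median -4.35), and 5 were lower in regulatory cells than in preadipocytes (median -3.48). Their summed level was 42.2 to 88.4 CPM in preadipocytes, 21.1 to 26.3 CPM in regulatory cells and 140 to 169 CPM in progenitors, where Tek alone gave 138 to 166 CPM. In progenitors, 5 of 6 mural markers (15.4 to 25.3 against 62.2 to 89.3 CPM in preadipocytes), 2 of 2 tested Schwann markers (2.67 to 5.53 against 20.5 to 35.7 CPM) and 10 of 14 dissociation genes were lower as well. Residual-marker cells were those with a UMI of Pecam1, Cdh5, Ptprc or Rgs5, with no Schwann or dissociation gene among these. They were left out together with the deepest 5% of cells. The log2 fold change of Cxcl9 was then -4.64 for progenitors and -3.10 for regulatory cells, each against preadipocytes. The part of the other cell types' RNA in the gate differences was not tested further.

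Cxcl10, the second CXCR3 ligand measured, did not follow Cxcl9. Its level was 366, 371 and 386 CPM in progenitors and 363, 452 and 373 CPM in preadipocytes. Those gates overlapped and their difference did not pass the test, with a log2 fold change of -0.02 (SE 0.21, edgeR adjusted p = 0.948) and a 95% interval of -0.43 to 0.40. Regulatory cells held 80.0, 244 and 298 CPM, below both other gates in every mouse but with an SD over mice of 114 CPM. Their log2 fold change was -0.91 against preadipocytes (SE 0.24, edgeR adjusted p = 0.0135) and -0.89 against progenitors (SE 0.23, edgeR adjusted p = 0.0090). In single mice the log2 ratio to preadipocytes ran from -2.18 to -0.32, a wider spread than the SE of 0.24 shows. Both calls were lost without the mouse block (adjusted p of 0.18 and 0.123) and in DESeq2 (0.0806 and 0.0582), and the first also without mouse 2 (0.0882).

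Cxcl12, which retains CXCR4-bearing stem cells and lymphocytes, was lowest in progenitors, higher in preadipocytes and highest in regulatory cells. Progenitors held 54.3, 78.9 and 72.9 CPM and preadipocytes 209, 327 and 304 CPM. Regulatory cells held 688, 1383 and 1116 CPM, so that no 2 gates overlapped. The log2 fold change of regulatory cells was 3.92 against progenitors (SE 0.09, edgeR adjusted p = 4e-11), a 15.1-fold difference, and 1.95 against preadipocytes (SE 0.08, edgeR adjusted p = 1.4e-08). Progenitors were below preadipocytes by -1.963 (SE 0.08, edgeR adjusted p = 8.9e-10).

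Cxcl14, a chemokine made at rest by skin and other connective tissues, separated progenitors from both other gates. Preadipocytes held 722, 1350 and 1046 CPM and regulatory cells 1144, 1426 and 802 CPM, and these gates overlapped. Progenitors held 41.5, 41.9 and 33.8 CPM. Progenitors were lower than preadipocytes by a log2 fold change of -4.66 (SE 0.19, edgeR adjusted p = 8.2e-10), a 25.2-fold difference. Regulatory cells did not differ from preadipocytes by the test, at 0.16 (SE 0.16, edgeR adjusted p = 0.534) with a 95% interval of -0.16 to 0.48.

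Cxcl16, a membrane-bound ligand of CXCR6 that can be shed, had the same order as Cxcl12 at lower values. It was at 14.4, 11.8 and 11.7 CPM in progenitors, 80.8, 56.5 and 45.8 CPM in preadipocytes and 145, 125 and 113 CPM in regulatory cells, with no overlap. Regulatory cells exceeded progenitors by a log2 fold change of 3.34 (SE 0.10, edgeR adjusted p = 3.7e-10) and preadipocytes by 1.14 (SE 0.10, edgeR adjusted p = 3.4e-06).

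Cxcl13, the B cell attractant that acts through CXCR5, was the only measured ligand with its highest mean in progenitors by a called margin. Its level there was 281, 495 and 334 CPM. Preadipocytes held 65.9, 250 and 161 CPM and regulatory cells 49.2, 73.6 and 68.7 CPM, and these last gates overlapped between mice although the regulatory value was lower within each mouse. The log2 fold change of progenitors against preadipocytes was 1.40 (SE 0.18, edgeR adjusted p = 3.2e-05), and that of regulatory cells against progenitors was -2.62 (SE 0.23, edgeR adjusted p = 1.9e-06). The difference of regulatory cells from preadipocytes was -1.22 (SE 0.23, edgeR adjusted p = 0.0021) and was no longer called without mouse 2 (-0.82, adjusted p = 0.0683) or without the mouse block (adjusted p = 0.102).

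Ackr3, the atypical receptor that removes Cxcl12 and Cxcl11, ran opposite to Cxcl12. Progenitors held 997, 1596 and 1011 CPM, preadipocytes 332, 446 and 300 CPM and regulatory cells 202, 250 and 164 CPM. Each gate lay apart from the others in all 3 mice. Progenitors exceeded preadipocytes by a log2 fold change of 1.78 (SE 0.08, edgeR adjusted p = 1.6e-09), and regulatory cells were below progenitors by -2.55 (SE 0.09, edgeR adjusted p = 6.2e-10), a 5.84-fold difference. Regulatory cells were below preadipocytes by -0.76 (SE 0.08, edgeR adjusted p = 3e-05), and without the mouse block that adjusted p was 0.0946.

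Ackr4, the scavenger of the lymphoid chemokines Ccl19, Ccl21 and Ccl25, was rare and nearly all in progenitors. Progenitors held 3.22, 3.31 and 4.26 CPM, from 563 UMIs in all. Preadipocytes held 1 UMI in each mouse and regulatory cells held 0 UMIs. The ratio of progenitors to preadipocytes was 61.3, with a 95% exact counting interval of 20.9 to 298, and against a floor of 3 UMIs over the whole regulatory group progenitors were at least 8.61-fold higher. The edgeR adjusted p was 2.7e-07 for progenitors against preadipocytes and 0.00012 for regulatory cells against progenitors.

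Counted over the measured members, 3 of 8 were higher and 4 of 8 lower in progenitors than in preadipocytes, beside 29.2% and 27.2% of the 13258 genes tested. Between regulatory cells and preadipocytes 2 of 8 were higher and 4 of 8 lower, beside 12.3% and 13.4% of the genes, and without mouse 2 the genes called fell from 3405 to 2053. Between regulatory cells and progenitors 4 of 8 were higher and 4 of 8 lower, beside 18.9% and 24% of the genes. The median log2 fold change of the members was -0.99, -0.84 and 0.54 in these comparisons, beside -0.00, -0.04 and -0.05 over the genes tested. The summed level of Cxcl9 and Cxcl10 over that of Cxcl12 and Cxcl14 is 1 measure of the balance of inducible to homeostatic ligands. It was 3.92, 3.11 and 3.66 in progenitors, 0.558, 0.375 and 0.374 in preadipocytes and 0.0617, 0.094 and 0.168 in regulatory cells. The sum of Cxcl9 and Cxcl10 was itself highest in preadipocytes in each mouse. It was 375, 376 and 391 CPM in progenitors, 519, 629 and 505 CPM in preadipocytes and 113, 264 and 322 CPM in regulatory cells. The high ratio of progenitors goes with their low sum of Cxcl12 and Cxcl14, at 95.8, 121 and 107 CPM against 931, 1677 and 1350 CPM in preadipocytes. With Cxcl13 and Cxcl16 added to the homeostatic sum, the ratio was 0.959, 0.599 and 0.863 in progenitors, 0.482, 0.317 and 0.324 in preadipocytes and 0.0558, 0.0878 and 0.154 in regulatory cells. Progenitors were thus above 1 only when Cxcl13 and Cxcl16 were left out, while the order of the gates was the same in each mouse for both ratios, which are given with no test because all of their genes are tested above. Cells of no gate held 37.1 to 84.5 CPM of Cxcl9 and 214 to 370 CPM of Cxcl12.

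The next comparison asked how many cells carried each member. Cells with at least 3000 UMIs were thinned to 3000 UMIs each, which left 18405 progenitors, 5400 preadipocytes and 846 regulatory cells. The share of cells with at least 1 UMI was then averaged over mice. With 3 mice, the exact sign-flip test (two-sided) cannot go below p = 0.25, so that no share difference could pass a threshold.

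**Figure D2:**
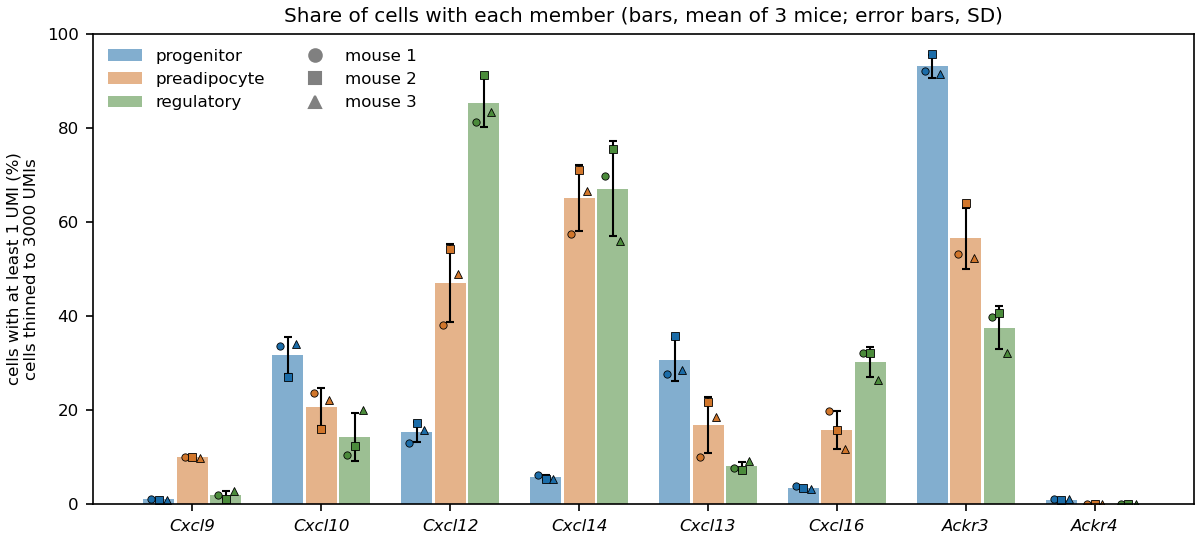
Share of cells with at least 1 UMI of each member after thinning every cell to 3000 UMIs. Bars are the mean of 3 mice, error bars the SD and points the mice, and the axis starts at 0. Ackr3 was found in 93.1% of progenitors and Cxcl12 in 85.3% of regulatory cells, whereas Cxcl9 was found in 9.96% of preadipocytes and fewer of the other cells.

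Cxcl9 was found in 9.96% ± 0.12 (SD, n = 3) of preadipocytes, 1.03% ± 0.15 of progenitors and 1.93% ± 0.77 of regulatory cells. The difference of progenitors from preadipocytes was -8.93 percentage points, lower in 3 of 3 mice (exact sign-flip p = 0.25, the smallest it can give). Without thinning, the preadipocyte shares were 14.4%, 18.1% and 13.7% of cells. Unthinned progenitors were at 2.24%, 2.56% and 1.77% and regulatory cells at 1.48%, 1.82% and 2.48%, so that their order turned in mice 1 and 2. The thinned Cxcl9 shares of regulatory cells rest on only 4, 4 and 8 cells with a UMI, and their level on 47, 74 and 47 UMIs. Cxcl12 was found in 85.3% ± 5.2 of regulatory cells, 47.0% ± 8.2 of preadipocytes and 15.4% ± 2.2 of progenitors. Ackr3 was found in 93.1% ± 2.4 of progenitors, 56.5% ± 6.5 of preadipocytes and 37.5% ± 4.6 of regulatory cells. In these members the order of the mean thinned shares was the order of the levels.

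Cxcl10 was found in 31.6% ± 4.0 of progenitors and 20.6% ± 4.1 of preadipocytes. The share was higher in progenitors in 3 of 3 mice while the level did not differ, so no order is read from the share. Cxcl14 was found in 65.0% ± 7.0 of preadipocytes, 67.1% ± 10.0 of regulatory cells and 5.67% ± 0.54 of progenitors. Cxcl13 was found in 30.6% ± 4.4, 16.8% ± 6.0 and 8.04% ± 0.98 of progenitors, preadipocytes and regulatory cells, and Cxcl16 in 3.501% ± 0.36, 15.8% ± 4.0 and 30.2% ± 3.3. Ackr4 was found in 0.952% ± 0.128 of progenitors and in 0% of regulatory cells, where the 209 to 342 thinned cells of a mouse allow a share of up to 0.877% to 1.44%, counting error only. Free RNA in the droplets can give UMIs in cells that do not express a gene, and its part in the low shares was not tested. The residual endothelial, leukocyte, mural and Schwann cells, taken outside the 3 gates and without a Pdgfra UMI, were only 23. Cells of such types that met a gate are not among them and were not counted. Those 23 cells held 0 UMIs of Cxcl9, Cxcl13 and Ackr4, but 32 of Cxcl10, 47 of Cxcl12, 13 of Ackr3, 4 of Cxcl16 and 2 of Cxcl14.

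The members differed in how few cells held their UMIs. In Cxcl9, 50% of all UMIs came from 0.37%, 0.374% and 0.461% of the kept cells in mice 1, 2 and 3, and single cells held up to 138, 449 and 117 Cxcl9 UMIs. For Cxcl10 the share of cells holding 50% of the UMIs was 5.23%, 3.27% and 5.23%. Cxcl13 (3.71%, 4.51% and 4.15%) and Cxcl14 (4.30%, 5.96% and 3.80%) were below Cxcl10 in mice 1 and 3 and above it in mouse 2. For Cxcl12 it was 8.26%, 8.03% and 6.88%, and for Ackr3, the most even member, 22.2%, 21.4% and 21.7%. Ackr4 was also concentrated (0.524% to 0.626% of cells), but at 139 to 281 UMIs per library few cells can hold it in any case.

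Cxcl9 and Cxcl10 were then compared within the same cells. In preadipocytes with a Cxcl9 UMI, 64.1%, 50.7% and 55.3% also had a Cxcl10 UMI in mice 1, 2 and 3, against 19.1%, 12.1% and 18.6% of preadipocytes without one. In progenitors, 61.0%, 48.3% and 57.3% of the few Cxcl9-positive cells (82, 29 and 82 cells) had Cxcl10, against 33.4%, 26.8% and 33.9% of the others. In both gates the share was higher with Cxcl9 in every mouse.

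To ask which other members go with Cxcl9, the thinned preadipocytes of each mouse were divided into 538 cells with a Cxcl9 UMI and 4862 without, and the sums were fitted with the mouse as a block. The depth before thinning was somewhat higher in the cells with Cxcl9 (medians of 8252 and 8121 UMIs in mouse 1, 14179 and 12978 in mouse 2, and 7508 and 7364 in mouse 3). Cxcl9 itself made the division and was not counted.

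**Figure D3:**
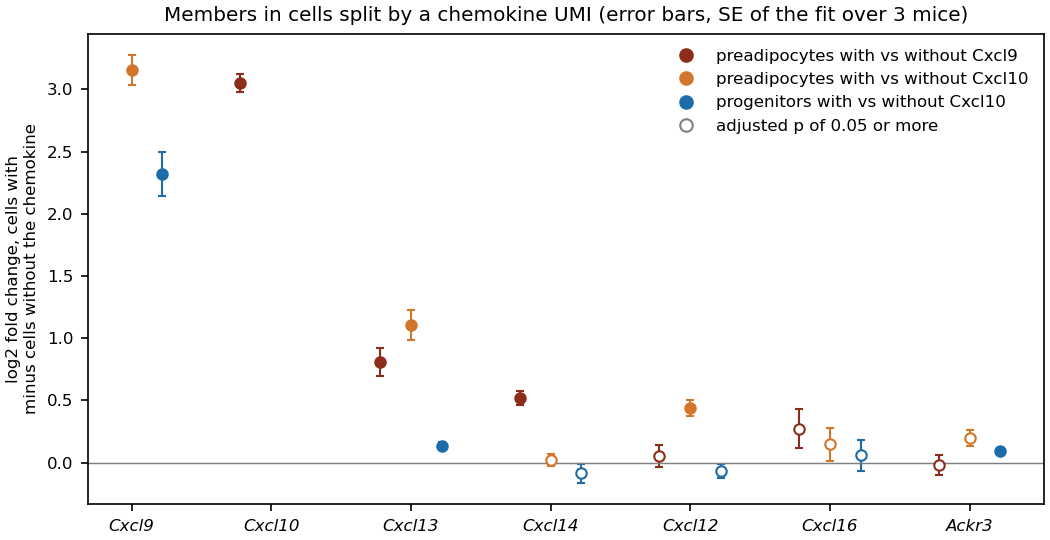
Members in cells divided by a chemokine UMI. The axis gives the fitted log2 fold change of cells with the chemokine against cells without it, with the SE from the edgeR fit. Preadipocytes were divided by Cxcl9 or Cxcl10 and progenitors by Cxcl10, and open points did not pass the test. Cxcl9 and Cxcl10 lie above 2 in the fits where they were tested, Cxcl13 is near 1 in preadipocytes, and the points of Cxcl16 are open in each division.

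Cxcl10 was at 1646, 2157 and 1562 CPM in Cxcl9-positive preadipocytes and at 219, 215 and 235 CPM in the others. The arms lay far apart in each mouse, with a log2 fold change of 3.05 (SE 0.07, edgeR adjusted p = 3e-28), an 8.27-fold difference. Cxcl14 was at 982, 1833 and 1404 CPM with Cxcl9 and at 715, 1322 and 1038 CPM without it, higher in 3 of 3 mice. Single-mouse log2 ratios were 0.44 to 0.47, and the fitted log2 fold change was 0.52 (SE 0.05, edgeR adjusted p = 2.6e-09). Cxcl13 was at 73.2, 380 and 268 CPM with Cxcl9 and at 65.6, 198 and 148 CPM without it. That rise was 0.81 on the log2 scale (SE 0.11, edgeR adjusted p = 1.3e-06), small in mouse 1 and larger in mice 2 and 3. The share of cells with Cxcl13 moved less, from 10.2%, 21.7% and 18.1% without Cxcl9 to 9.42%, 22.8% and 22.9% with it.

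Cxcl12 and Ackr3 showed no called difference. Cxcl12 was at 233, 282 and 333 CPM with Cxcl9 and at 203, 361 and 314 CPM without (0.05, SE 0.09, edgeR adjusted p = 0.908, 95% interval -0.12 to 0.23), and Ackr3 was at 312, 377 and 307 against 328, 443 and 297 CPM (-0.02, SE 0.08, edgeR adjusted p = 0.969, 95% interval -0.17 to 0.13). Another thinning draw gave Cxcl12 a called rise of 0.34 (adjusted p = 0.0044), a call that the draw shown here did not give. Cxcl16 was at 0.27 (SE 0.16, edgeR adjusted p = 0.549). In all, 3 of 6 members were higher and 0 of 6 lower, beside 3.08% and 0.587% of the 9532 genes tested. Without the mouse block only Cxcl10 kept its call, and 45 genes were called in place of 350.

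**Figure D4:**
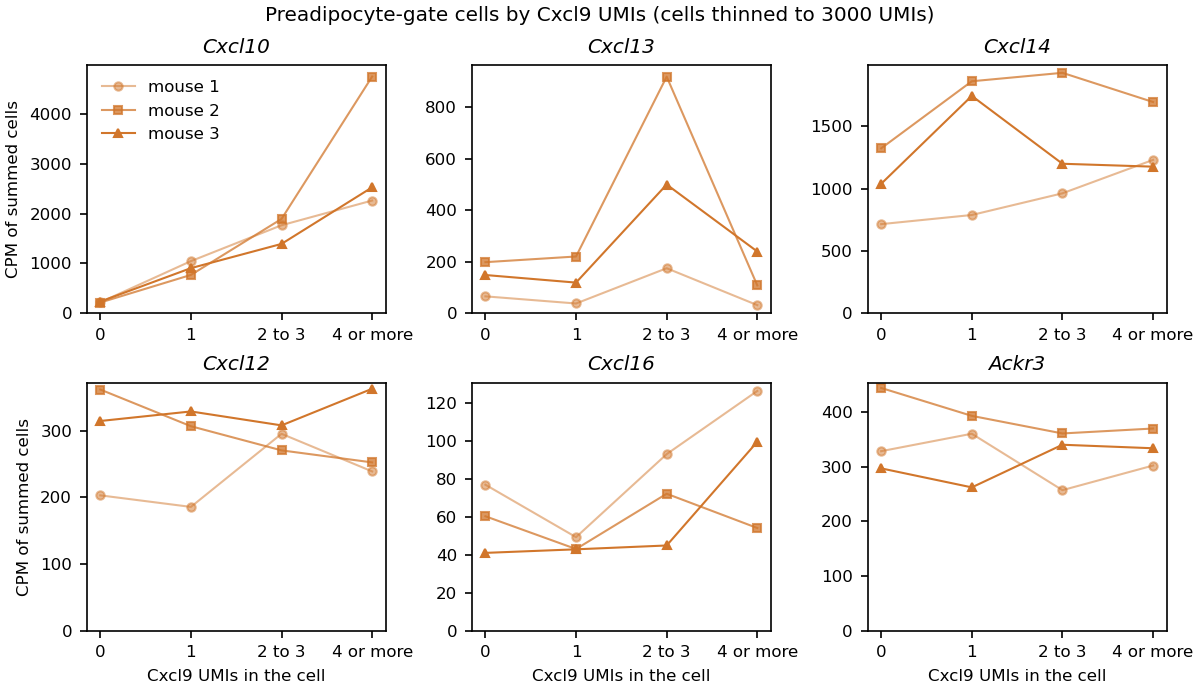
Members in preadipocytes by the number of Cxcl9 UMIs in the cell, after thinning. Each panel gives the CPM of the summed cells for 1 gene, with 1 line per mouse, in cells with 0, 1, 2 to 3 or 4 or more Cxcl9 UMIs, and the axes start at 0. Cxcl10 goes up from class to class in each of the 3 mice, whereas Cxcl13 peaks at 2 to 3 UMIs and Cxcl12 and Ackr3 have no common course.

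The amount of Cxcl9 went with the amount of Cxcl10. In mouse 1 the Cxcl10 level was 219, 1045, 1765 and 2261 CPM in cells with 0, 1, 2 to 3 and 4 or more Cxcl9 UMIs. In mouse 2 it was 215, 769, 1892 and 4748 CPM, and in mouse 3 it was 235, 905, 1391 and 2526 CPM. Cxcl13 was at 37.9, 220 and 119 CPM in the class of 1 UMI, below the class of 0 in mice 1 and 3. It went to 175, 919 and 500 CPM in the class of 2 to 3 UMIs. In the class of 4 or more, which held 74, 37 and 57 cells, it was back at 31.5, 108 and 240 CPM, below the class of 0 in mice 1 and 2. These classes are a description with no test.

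The genes around the interferon pathway rose with Cxcl9. Of 25 tested genes of interferon-gamma signalling and its targets, 19 rose and 0 fell, with a median log2 fold change of 1.13 beside -0.00 over all genes. The largest called rises in that list were those of the GTPase Gbp4 (3.48, SE 0.55), the transcription factor Irf8 (2.53, SE 0.41), Cd274, which encodes the checkpoint ligand PD-L1 (2.35, SE 0.31), and the GTPase Gbp5 (2.22, SE 0.24). Gbp4 and Irf8 did not meet the rule used below, of 20 CPM or more and the same direction in all mice. Of 11 tested type I interferon targets 10 rose, among them Rsad2 (3.31, SE 0.31), Ifit1 (2.86, SE 0.09), Ifit3 (2.12, SE 0.15) and Isg15 (2.00, SE 0.12). Of 11 NF-kB genes 8 rose by smaller amounts, led by the monocyte chemokine Ccl2 (1.05, SE 0.09) and Nfkb1 (0.81, SE 0.09). Of 14 genes induced by tissue dissociation 1 rose and 7 fell, with the heat shock gene Hspa1a at -0.67 (SE 0.06) and Fos at -0.53 (SE 0.05), and Hspa1a and Hspa1b are near-identical copies. Every rise or fall named here passed the edgeR test at an adjusted p under 0.05.

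Among genes other than the members that were at 20 CPM or more in all mice with or without Cxcl9 and moved the same way in all mice, the 5 largest called rises were Rsad2, Ifit1, Cd274, Ifit3b and Gbp5. Rsad2, an antiviral enzyme, was at 34.4, 56.4 and 35.4 CPM with Cxcl9 and at 2.34, 8.72 and 3.25 CPM without. Ifit3b (2.32, SE 0.31) shares much of its sequence with Ifit3, so reads can be split between them. The 5 largest falls were smaller: the stress cytokine Gdf15 (-1.43, SE 0.28), Swt1 (-1.08, SE 0.19), Bmyc (-1.05, SE 0.29), Arrdc3 (-0.93, SE 0.27) and Zfp292 (-0.93, SE 0.23). Each of these passed the edgeR test with an adjusted p of at most 0.0365.

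Endothelial transcripts were higher with Cxcl9 in mice 1 and 2, and 2 of the 3 tested endothelial markers rose. The 7 endothelial markers summed to 239 and 240 CPM in Cxcl9-positive preadipocytes of mice 1 and 2, against 31.7 and 54.8 CPM in the others, and to 44.7 against 42.8 CPM in mouse 3. Cldn5, a tight-junction gene of endothelium, was at 80.7, 68.6 and 0 CPM against 0.334, 6.81 and 0.812 CPM. In mouse 3, 5 of the 7 markers (Pecam1, Cdh5, Kdr, Flt1 and Cldn5) were at 0 in the Cxcl9-positive cells. That arm held only 179 cells and 537000 UMIs, so a low level can give a count of 0 there. With residual-marker cells and the deepest 5% of cells left out, the log2 fold change of Cxcl10 was 3.11, that of Cxcl14 0.58 and that of Cxcl13 0.88. The part of endothelial RNA in the other rises was not tested. Leukocyte markers summed to at most 1.49 CPM with Cxcl9 and at most 5.48 CPM without. The arms with Cxcl9 held only 408000 to 669000 UMIs, against 3669000 to 5988000 without. No difference is read from sums this low.

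Dividing preadipocytes by Cxcl10 instead gave 1146 cells with and 4254 without a UMI. Cxcl9 was at 408, 628 and 405 CPM with Cxcl10 and at 70.0, 55.8 and 39.5 CPM without it, higher by a log2 fold change of 3.15 (SE 0.12, edgeR adjusted p = 2.1e-13). Cxcl13 was at 120, 445 and 210 CPM against 49.9, 173 and 146 CPM (1.11, SE 0.12, edgeR adjusted p = 1.4e-06). Cxcl12 was at 247, 438 and 382 CPM against 193, 337 and 297 CPM, higher in 3 of 3 mice with single-mouse log2 ratios of 0.35 to 0.38. Its fitted log2 fold change was 0.44 (SE 0.06, edgeR adjusted p = 8e-05). Cxcl14 was at 750, 1266 and 1043 CPM against 739, 1394 and 1083 CPM and did not pass (0.02, SE 0.05, edgeR adjusted p = 0.903, 95% interval -0.07 to 0.12). Ackr3 (0.20, SE 0.06, edgeR adjusted p = 0.0812) and Cxcl16 (0.15, SE 0.13, edgeR adjusted p = 0.715) did not pass either.

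Here 3 of 6 members were higher and 0 of 6 lower, beside 3.99% and 0.682% of the 9818 genes tested. The genes called fell from 459 to 209 without mouse 1, and to 28 without the mouse block, where Cxcl9 alone kept its call among the members. The list of interferon-gamma signalling and targets had 17 of 25 tested genes higher and 0 lower, the type I list 10 of 11 and the NF-kB list 7 of 11. Endothelial markers summed to 36.9 to 70.6 CPM with Cxcl10 and 42.8 to 80.3 CPM without, and 0 of the 2 tested rose.

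In progenitors, 6030 cells had a Cxcl10 UMI and 12375 had none. Cxcl9 was at 19.5, 7.94 and 9.58 CPM with Cxcl10 and at 3.02, 2.21 and 2.45 CPM without it, higher by a log2 fold change of 2.32 (SE 0.18, edgeR adjusted p = 3e-19). Ackr3 was at 1038, 1711 and 1039 against 1008, 1595 and 1010 CPM, a called rise of only 0.09 (SE 0.02, edgeR adjusted p = 0.0019). Cxcl13 was at 305, 470 and 353 against 271, 476 and 323 CPM, a rise of 0.13 (SE 0.03, edgeR adjusted p = 0.0014) seen in 2 of 3 mice. Neither of these held in DESeq2 (adjusted p = 0.237 for each), without thinning (0.0718 and 0.961) or without mouse 1 (0.0561 and 0.424), and Cxcl13 did not hold without mouse 3 (0.165). Cxcl12, Cxcl14, Cxcl16 and Ackr4 did not pass, with log2 fold changes between -0.09 and 0.24.

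Thus 3 of 7 members were higher and 0 of 7 lower, beside 2.95% and 0.739% of the 11373 genes tested, and the genes called fell from 419 to 211 without mouse 1 and to 249 without mouse 3. Without the mouse block, edgeR called 0 genes and 117 had an unadjusted p under 0.05, and DESeq2 called 118 with the block. Among the interferon lists, 9 of 24 interferon-gamma genes, with Gbp5 at 0.81 (SE 0.16) and Iigp1 at 0.78 (SE 0.05), and 11 of 13 type I targets, with Rsad2 at 1.81 (SE 0.10) and Ifit1 at 1.33 (SE 0.07), passed the edgeR test. The NF-kB list had 8 of 11 higher, led by Ccl2 at 0.77 (SE 0.03).

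**Figure D5:**
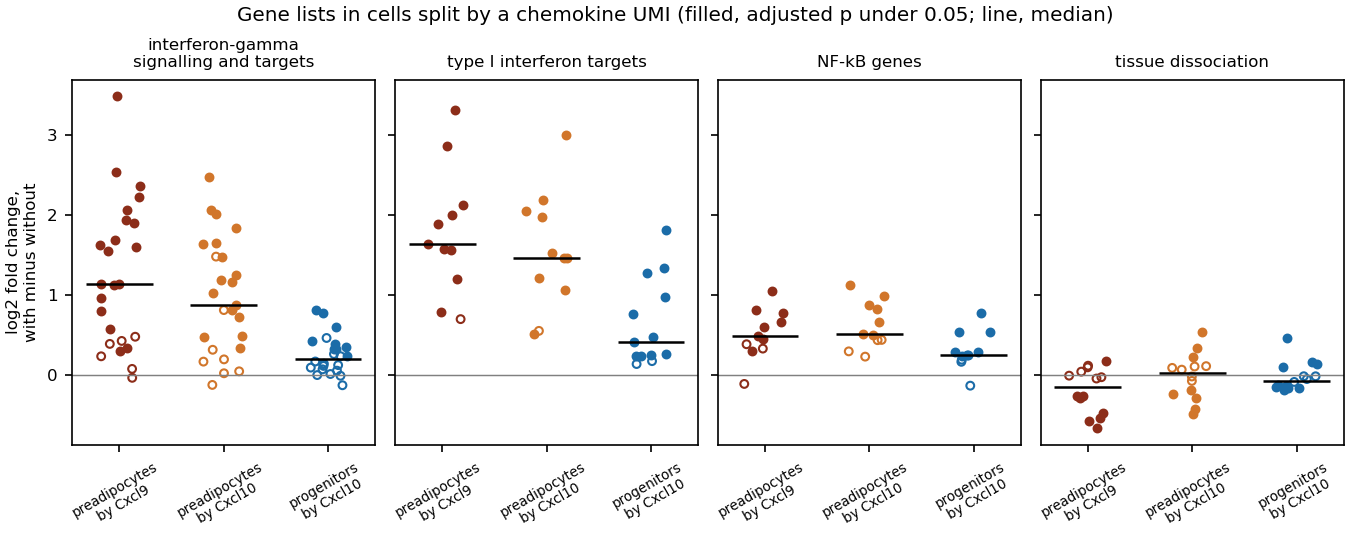
Fitted log2 fold changes of the genes of 4 lists in cells with a chemokine UMI against cells without it. Each point is 1 gene, filled where the adjusted p was under 0.05, and the line is the median of the list. The interferon lists lie higher in preadipocytes than in progenitors. For preadipocytes by Cxcl9, preadipocytes by Cxcl10 and progenitors by Cxcl10, the medians were 1.13, 0.87 and 0.20 for interferon-gamma genes. They were 1.64, 1.46 and 0.41 for type I targets and -0.15, 0.02 and -0.07 for dissociation genes. Of the 14 dissociation genes, 7, 5 and 6 were called lower and 1, 3 and 4 higher.

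Whether the rises with a Cxcl10 UMI differed between the 2 populations was tested in 1 model over the 12 sums. That model was chosen after the values above were seen. Cxcl13 rose more with Cxcl10 in preadipocytes than in progenitors, by 0.96 on the log2 scale (SE 0.12, edgeR adjusted p = 8.7e-07). Cxcl12 also differed, by 0.51 (SE 0.09, edgeR adjusted p = 0.00026), which was not called without mouse 1 (0.39, adjusted p = 0.0671). Cxcl9 was at 0.79 (SE 0.30, edgeR adjusted p = 0.231) and without mouse 1 at 1.54 (adjusted p = 0.0046). Ackr3, Cxcl14, Cxcl16 and Ackr4 showed no called difference, and 2.39% of 11410 genes rose more and 0.272% less in preadipocytes. Of the list genes, 13 of 25 interferon-gamma genes, 7 of 13 type I targets and 3 of 11 NF-kB genes rose more in preadipocytes, and 0 rose less. Cells with a Cxcl10 UMI were not matched for its amount. In mice 1, 2 and 3 they held 1534, 2562 and 1642 CPM of Cxcl10 in preadipocytes. In progenitors they held 1076, 1316 and 1109 CPM. The part of this in the larger rises was not tested.

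The receptors through which these ligands act on lymphocytes were nearly absent from the stroma. Cxcr3, Cxcr5, Cxcr6 and Ccr7 were at most at 0.702, 0.0186, 0 and 0.093 CPM in any gated sum, and Cxcr4, the signalling receptor of Cxcl12, was at most at 1.03 CPM. The atypical receptors that are not members were also higher in progenitors than in preadipocytes. Ackr2, a scavenger of inflammatory CC chemokines, was at 37.8, 28.9 and 42.3 CPM in progenitors and at 1.52, 1.80 and 4.05 CPM in preadipocytes, higher in progenitors by 4.00 on the log2 scale (SE 0.16, edgeR adjusted p = 1e-09). Ackr1 was at 61.6, 82.8 and 79.3 CPM in progenitors, 9.02, 12.8 and 17.98 CPM in preadipocytes and 51.3, 62.5 and 56.8 CPM in regulatory cells, higher in progenitors than in preadipocytes by 2.58 (SE 0.11, edgeR adjusted p = 1.5e-09). Unlike Ackr3 and Ackr4, Ackr1 was higher in regulatory cells than in preadipocytes (2.17, edgeR adjusted p under 0.05). Of 4 tested genes of the receptor and ligand list, 2 were higher and 2 lower in progenitors than in preadipocytes, beside 29.2% and 27.2% of all genes tested. Of 5 tested proteases that cut or shed chemokines, 3 were higher in progenitors than in preadipocytes, beside the same 29.2% of all genes, namely Anpep (1.13, SE 0.07), Adam17 (0.71, SE 0.06) and Adam10 (0.60, SE 0.06), the last 2 being sheddases of Cxcl16, and Fap was lower (-0.92, SE 0.06), all with an edgeR adjusted p under 0.05.

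Genes with the most similar pattern were sought among 5514 genes with a mean of at least 20 CPM, by Pearson's r of log2(CPM + 1) over the 9 sums, which share libraries and gates and are given with no test. Cxcl9 was closest to Fscn1 (r = 0.995), Adam12 (0.987) and Fam49a (0.987). Cxcl12 was closest to Serpina3n (0.996) and Agt (0.994), and Cxcl14 to Mgst3 (0.996), Cygb (0.995) and Bgn (0.993). Cxcl16 was closest to Nr2f2, Acp5 and Rbp4 (0.985 to 0.991) and Ackr3 to Rab32, Zfp385a and Pink1 (0.978 to 0.981). Cxcl10 was closest to Snrpa1, Krt10 and Pan3 (0.930 to 0.969), and Cxcl13 to Tpt1, Fbln5 and Rpl13a (0.941 to 0.953).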

How the data were processed

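Members and gene lists were chosen with earlier results of these data known. Per the labels, single cells of 3 mice were sequenced with a 10x Genomics 3' kit. The authors deposited UMI counts per gene and barcode, not normalized. The submitters' processing notes name Cell Ranger 2.1.1 and mm10, and the matrix headers name Cell Ranger 4.0.0. The labels give no batches. Samples were grouped by their labels, and cells were kept, gated and summed as described above. Cells that met several gates were left out. Doublets were not called. The deposited gene identifiers were matched to GENCODE M21 on GRCm38 (32158 of 32285). Sums were fitted in edgeR 4.0.16 (R 4.3.3, filterByExpr, TMM, quasi-likelihood test, mouse as a block, Benjamini-Hochberg). DESeq2 1.42.0 was an alternative. The block was used because the sums of a mouse come from 1 animal, and their deviations from the gate means correlated across 13264 genes with r of at least 0.154. The edgeR steps were tested on simulated data with 200 genes changed 2-fold. Of these, 169 were recovered for progenitors against preadipocytes and 104 in the division by Cxcl9. In the divisions by Cxcl10, 129 were recovered in preadipocytes and 167 in progenitors. Genes called although unchanged numbered 7, 4, 12 and 13, in the same order. The simulated counts had no mouse effect and the same spread setting for all genes, so they do not test the mouse block. Divisions by a chemokine needed 20 cells per arm. Named genes were the members, up to 4 of the largest called changes per list and comparison, the 3 most similar genes per member (1 is not reported here), and the 5 largest called rises and falls with Cxcl9 at 20 CPM or more and with 1 sign in all mice. Intervals of fold changes are 1.96 SE from the edgeR fit. Exact intervals and floors cover counting error only. Kept cells held 94816520, 78108414 and 99328725 UMIs in mice 1, 2 and 3. Python 3.11.15, scipy 1.17.1 and matplotlib 3.10.9 were used. Ccl19, Ccl21a, Ccl27a, Mx1 and Mx2 were not analysed here.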

Additional observations from a re-analysis of the deposited data

Results flagged for a closer look

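Results that differed between preadipocytes and progenitors in the test of the difference itself are listed. The rise of Cxcl13 with a Cxcl10 UMI was larger in preadipocytes by 0.96 on the log2 scale (SE 0.12, edgeR adjusted p = 8.7e-07), and that of Cxcl12 by 0.51 (SE 0.09, edgeR adjusted p = 0.00026). The difference of Cxcl12 was not called without mouse 1, and neither difference was called without the mouse block. Of the listed genes, 13 of 25 interferon-gamma genes, 7 of 13 type I interferon targets and 3 of 11 NF-kB genes rose more in preadipocytes (edgeR adjusted p under 0.05). These counts stand beside 2.39% of the 11410 genes tested. Cells with a Cxcl10 UMI held more Cxcl10 in preadipocytes than in progenitors, and the part of this in the larger rises was not tested. No group held the 4 samples that a search for an outlying mouse needs.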

How the results depend on the processing

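Of 32 member changes that passed the test, 18 kept their direction and call under each alternative run, and in the other 14 the call was lost at least once while none changed sign. The replicate block had the largest effect. With no replicate block, the genes called numbered 3996, 1531 and 3130 for progenitors against preadipocytes, regulatory cells against preadipocytes and regulatory cells against progenitors, 45 and 28 for preadipocytes divided by Cxcl9 and Cxcl10, and 0 for progenitors divided by Cxcl10 and for the test of the difference (117 and 294 genes at an unadjusted p under 0.05). The members called without it were 3 in the second of these comparisons, 1 and 1 in the divided preadipocytes, and 0 and 0 in the last pair. DESeq2 with the block called 182, 220 and 118 genes in the 3 divisions and 0 members in progenitors, where it gave no adjusted p for Cxcl9, Cxcl14, Cxcl16 and Ackr4, so that of the 3 members called by edgeR Cxcl9 was not assessed and Cxcl13 and Ackr3 were lost. With no thinning the divided preadipocytes had 614 and 911 genes called, and with gates thinned to 3000 UMIs regulatory cells had 1890 against preadipocytes and 3430 against progenitors. The causes were not tested.

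Leaving out 1 mouse gave 2053 to 2800 genes called for regulatory cells against preadipocytes, 233 to 295 for the Cxcl9 division, 209 to 503 and 211 to 405 for the Cxcl10 divisions of preadipocytes and progenitors (1 to 3 members in the latter) and 142 to 291 for the test of the difference.

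Signs turned for member log2 fold changes that had not passed the test. For progenitors against preadipocytes Cxcl10 was at 0.0020 with no low-count filter, 0.080 with stricter gates, 0.20 when thinned and -0.10 to 0.076 with 1 mouse left out. For regulatory cells against preadipocytes Cxcl14 was at -0.13 when thinned and -0.092 to 0.40 with 1 mouse left out, and Ackr4 at 0.57 in DESeq2 and 0.032 when thinned. With Cxcl9, Cxcl12 was at -0.0097 by library size only and -0.056 to 0.19 with 1 mouse left out, and Ackr3 at -0.095 to 0.036. With Cxcl10 in preadipocytes, Cxcl14 was at -0.057 by library size only, -0.019 with no low-count filter and -0.019 to 0.050 with 1 mouse left out, and Cxcl16 at -0.048 in another thinning draw. With Cxcl10 in progenitors, leaving out 1 mouse gave Cxcl12 -0.20 to 0.048, Ackr4 -0.020 to 0.36 and Cxcl16 -0.063 to 0.14, and Cxcl16 was at -0.12 in another draw and -0.067 with no thinning. In the test of the difference Cxcl16 was at -0.073 to 0.38. Of the share values under alternatives, 24 moved by more than 1 SD over mice and 120 did not.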
